A study of Mus musculus with 18 samples.

Results

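The genes described here code for the Wnt ligands, their receptors and secreted antagonists, and the proteins that pass the signal on to beta-catenin. Members were the genes whose symbol in the platform annotation is Wnt, Fzd, Sfrp, Dkk, Dact or Dvl followed by a number, together with Lrp5, Lrp6, Frzb, Wif1, Axin1, Axin2, Ctnnb1, Tcf7l1 and Tcf7l2. The array carried 52 such genes of 18193 named genes, on 105 probe sets that name a single gene. Of these, 36 genes were bright enough to test, of 13121 named genes tested. The tested members were 9 of 19 ligands, 11 of 12 receptors, 6 of 10 secreted antagonists, 7 of 8 intracellular regulators, and all 3 of beta-catenin and its DNA-binding partners.

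Total RNA from mouse hippocampus was measured in 18 samples, 1 Affymetrix expression array each, in 3 groups of 6. The groups were aged animals with impaired spatial memory, aged animals with unimpaired spatial memory, and young animals, and the study compared them to find transcripts that differ with memory in old age. No treatment or allele is named for any group, and the sources used here give no age, strain or sex. Nothing in the labels says that the samples are from separate animals, so the spread behind the p-values may be partly technical.

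Wnt proteins are secreted lipid-modified ligands that bind Frizzled receptors (Fzd genes) together with the co-receptors Lrp5 and Lrp6. In the canonical branch, binding recruits Dishevelled (Dvl genes) and Axin, beta-catenin escapes degradation, and it switches on target genes with TCF/LEF factors such as Tcf7l1 and Tcf7l2. Secreted frizzled-related proteins, Dickkopf proteins and Wif1 hold the signal back outside the cell, and Axin and Dact proteins modulate it inside. In the adult hippocampus the pathway is known for its part in the birth of dentate granule neurons and in synapse maintenance.

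The promoters of Wnt9a and Dact1 are shown as those of the members called in a comparison, and that of Axin2 as the standard readout gene of beta-catenin signalling. Each is 300 bases on the plus strand, 250 before and 50 after the annotated start, from RefSeq on GRCm38.p6, at chr11:59306680-59306979 for Wnt9a, chr12:71309634-71309933 for Dact1 and chr11:108920099-108920398 for Axin2. Capitals mark the GC box GGGCGG on either strand, overlapping matches included, and TATAA.
Wnt9a: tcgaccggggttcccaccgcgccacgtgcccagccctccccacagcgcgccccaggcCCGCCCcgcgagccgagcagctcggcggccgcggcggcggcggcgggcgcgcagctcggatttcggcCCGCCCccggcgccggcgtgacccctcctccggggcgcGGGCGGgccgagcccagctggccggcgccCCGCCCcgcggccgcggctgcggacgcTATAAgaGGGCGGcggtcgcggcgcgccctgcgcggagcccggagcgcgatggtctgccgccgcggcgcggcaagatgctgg
Dact1: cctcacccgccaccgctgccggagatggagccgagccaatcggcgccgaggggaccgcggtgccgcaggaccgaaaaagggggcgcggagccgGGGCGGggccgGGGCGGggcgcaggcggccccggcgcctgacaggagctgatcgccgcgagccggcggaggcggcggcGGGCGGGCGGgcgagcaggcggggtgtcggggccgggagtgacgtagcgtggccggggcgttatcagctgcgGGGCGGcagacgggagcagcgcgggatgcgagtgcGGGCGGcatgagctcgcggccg
Axin2: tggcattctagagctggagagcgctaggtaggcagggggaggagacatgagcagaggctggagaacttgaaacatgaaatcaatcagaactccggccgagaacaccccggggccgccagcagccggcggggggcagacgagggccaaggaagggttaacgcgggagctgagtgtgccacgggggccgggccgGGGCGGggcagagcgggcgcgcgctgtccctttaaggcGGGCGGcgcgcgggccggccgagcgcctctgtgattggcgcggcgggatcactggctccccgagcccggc
The Wnt9a window is 83.3% G and C and holds 5 GC boxes and a TATAA 32 bases before the start. The Dact1 window is 79.7% G and C and holds 6 GC boxes, and that of Axin2 is 70.0% G and C with 2. The letters CTTTGA and CTTTGT, the core that TCF/LEF factors bind, were searched on both strands and occur in none of these windows, against 28.6% of the 42 promoters matched to 37 members and 31.2% of all 32851 promoters in the table. The GC box occurs in 81.0% of the members' promoters and in 35.7% of all, and TATAA on either strand in 21.4% and 24.9%. The members' promoters ran from 42.0% to 86.3% G and C, and the median of all promoters was 52.7%. The part of base composition in the GC box shares was not tested.

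Values below are log2(signal + 16) with every array brought to a trimmed mean of 500, and differences on this scale understate the change of dim genes. Each named gene stands on its probe set of highest mean, and a level is compared only between groups, never between probe sets. A gene was called at an adjusted p under 0.05 in limma, with Benjamini-Hochberg adjustment over all 27022 tested probe sets. Group values are given as mean ± SD (n = 6 samples a group) or as lowest, median and highest, and a difference as its estimate ± SE.

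Cell type markers were fixed by list, and their level alone does not show which cells are present. The CA1 neuron list averaged 10.78 ± 0.13 in aged impaired, 11.02 ± 0.13 in aged unimpaired and 10.93 ± 0.12 in young samples (aged impaired against aged unimpaired, exact permutation p = 0.0130, adjusted 0.0724). Choroid plexus transcripts, from tissue that lies against the hippocampus, set the arrays apart. Their mean over 16 tested genes, of 19 listed, was at most 7.67 on 5 arrays and at least 8.89 on the other 13, of which 5 were aged impaired, 3 aged unimpaired and 5 young. The group means were 9.59 ± 1.12, 8.76 ± 1.52 and 9.59 ± 1.15 (exact permutation p of 0.329 for aged impaired against aged unimpaired, 0.998 for aged impaired against young and 0.314 for aged unimpaired against young). The mean of 12 meninges and fibroblast genes was 8.28 ± 0.38 in aged impaired, 8.13 ± 0.41 in aged unimpaired and 8.74 ± 0.30 in young samples (aged unimpaired against young, exact permutation p = 0.0152, adjusted over 39 tests 0.0741). The mean of 7 newborn neuron genes was lower in both aged groups, at 10.12 ± 0.09 in aged impaired and 10.12 ± 0.06 in aged unimpaired against 10.33 ± 0.08 in young samples (exact permutation p = 0.00216, the smallest that 6 against 6 allows, adjusted 0.0211). The genes of this list differed unevenly. In aged impaired and aged unimpaired samples Sox11 averaged 8.78 and 8.89 against 9.36 in young, and Dpysl3 9.48 and 9.49 against 9.98. Dcx was at 7.60 and 7.47 against 7.63, Tubb3 at 11.10 and 11.11 against 11.14, and Stmn1 at 13.97 and 13.95 against 13.99. In bulk tissue fewer cells of a type and less RNA per cell cannot be told apart.

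Wnt9a, higher in aged impaired than in young samples, was the only member called in a comparison of 2 groups. Between aged impaired and aged unimpaired samples, 0 of 36 members were called, where 0.00762% of all tested genes were, and 6 had an unadjusted p under 0.05 in limma, or 16.7% against 8.06% of all genes. Between aged impaired and young samples 1 of 36 was called, where 1.9% of all genes were and 1.3% as higher, and 10 had an unadjusted p under 0.05, or 27.8% against 16.2%. Between aged unimpaired and young samples 0 of 36 were called, where 0.145% of all genes were. There 10 members, all lower, had an unadjusted p under 0.05, or 27.8% where 8.45% of all genes passed in either direction and 4.47% were lower. With both aged groups averaged against young, Dact1 alone was called, as lower, where 1.19% of all genes were called and 0.373% as lower. In that comparison 12 members had an unadjusted p under 0.05, or 33.3% against 13.9% of all genes, and 11 of them were lower, against 6.8% of all genes. The comparisons against young share the same 6 young samples and are not independent of each other.

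Most members had their lower mean in the aged unimpaired group when it was set against young. In aged unimpaired against young samples 30 of 36 members had the lower mean, or 83.3% against 52.3% of all genes, and the median difference was -0.10 against -0.01 for all genes. In aged impaired against young samples 23 of 36 did, or 63.9% against 50.8%, with a median of -0.05 against -0.00. In aged impaired against aged unimpaired samples 13 of 36 had the lower mean, or 36.1% against 47.7%, with a median of 0.11 against 0.01. These are counts of direction, most of them for differences that missed the threshold. The aged unimpaired group also had the lowest choroid plexus and meninges means given above, with 3 of its 6 arrays below the choroid plexus gap. In a fit with the groups as terms, 26 of 36 members had a positive slope on the choroid plexus mean, or 72.2% against 50.7% of all genes, and the part of these signals in the counts was not tested.

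**Figure D1:**
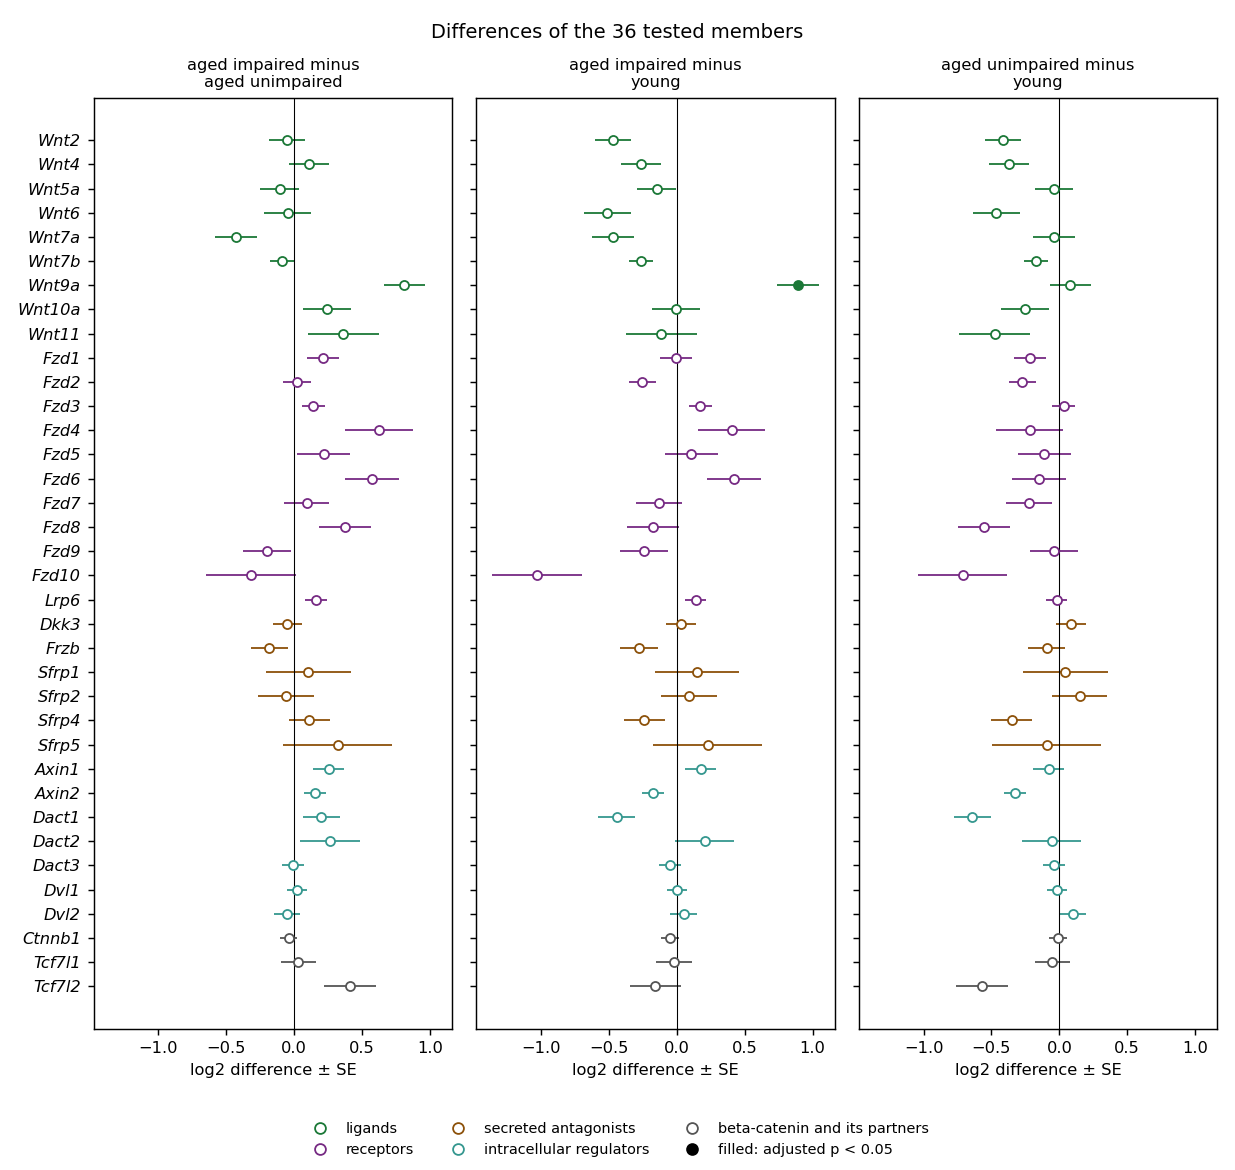
Differences in log2(signal + 16) ± SE (x axis) of the 36 tested members (rows, coloured by role) in the 3 comparisons of 2 groups, with filled points for an adjusted p under 0.05. Wnt9a in aged impaired against young samples is the only filled point, and in aged unimpaired against young samples 30 of the 36 points lie left of 0.

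Among the ligands, Wnt9a, a Wnt known for its part in joint formation, was higher in aged impaired samples than in any sample of the other groups. Its levels ran from 8.57 through a median of 8.89 to 9.13 in aged impaired samples, from 7.63 through 8.03 to 8.37 in aged unimpaired samples, and from 7.57 through 7.95 to 8.34 in young samples. All 6 aged impaired samples thus lay above all 12 others, while the aged unimpaired and young samples overlapped over most of their range. In the deposited signals the ranges were 109 to 163 in aged impaired, 54.6 to 94.5 in aged unimpaired and 52.2 to 92.5 in young samples.

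Against young samples Wnt9a was 0.89 ± 0.15 higher in aged impaired samples, a ratio of 1.86 on the signal + 16 scale (limma, adjusted p = 0.00549), and this was called under all 30 alternatives, at adjusted p-values from 0.00182 to 0.0273. Against aged unimpaired samples it was 0.81 ± 0.15 higher (adjusted p = 0.122, unadjusted 4.64e-05), and this was called under 0 of 30 alternatives, at 0.0511 to 0.394. Aged unimpaired and young samples differed by 0.08 ± 0.15 (adjusted p = 0.937). Across members, Wnt9a and Axin1 were the ones whose aged impaired and aged unimpaired samples did not overlap, 5.56% of the tested members where 0.556% of all genes did not overlap and 0.312% were higher without overlap. Against young samples the share of all genes higher without overlap was 1.44%. Within the 13 arrays of high choroid plexus signal the Wnt9a difference from young was 0.97 ± 0.16. With the meninges mean as a covariate it was 0.77 ± 0.17. The oligodendrocyte list was also higher in aged impaired samples, at 12.46 ± 0.10 against 12.20 ± 0.18 in aged unimpaired and 12.13 ± 0.18 in young samples (against young, exact permutation p = 0.00433, adjusted 0.0338), and the microglia list averaged 10.44 ± 0.19, 10.30 ± 0.19 and 9.84 ± 0.12. The CA1 list was at 10.78 in aged impaired against 11.02 in aged unimpaired samples. Their part in the Wnt9a difference was not tested. The other Wnt9a probe set was too dim to test and ran from 4.56 to 6.30 in aged impaired, 4.50 to 6.29 in aged unimpaired and 4.54 to 5.30 in young samples, overlapping throughout.

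The other 8 tested ligands all had lower means in both aged groups than in young samples, and none was called. Over the 9 ligands the median difference was -0.26 in aged impaired and -0.25 in aged unimpaired samples against young. Wnt2, a ligand that activates beta-catenin in lung and heart development, ran from 6.96 through 7.24 to 7.44 in aged impaired, from 6.82 through 7.28 to 7.84 in aged unimpaired and from 7.48 through 7.73 to 7.85 in young samples. Every aged impaired sample lay below every young one, as was the case for 0.884% of all genes. The Wnt2 difference from young was -0.47 ± 0.13 in aged impaired samples (adjusted p = 0.0798) and -0.41 ± 0.13 in aged unimpaired samples (adjusted p = 0.338). It passed the threshold in aged impaired samples when aged unimpaired replicate 3 or replicate 6 was left out (adjusted p of 0.0350 and 0.0440), with the choroid plexus mean as a covariate (0.0492) and in a fit of only the groups compared (0.0388).

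Wnt7a, which promotes synapse formation and axon remodelling, had the lowest of its 3 group means in aged impaired samples. It ran from 7.23 through 7.79 to 8.17 in aged impaired, from 8.01 through 8.12 to 8.50 in aged unimpaired and from 7.77 through 8.26 to 8.69 in young samples. Its difference was -0.43 ± 0.15 against aged unimpaired (adjusted p = 0.493) and -0.47 ± 0.15 against young samples (adjusted p = 0.137), and the groups overlapped. The dimmer Wnt7a probe set had differences of -0.09 and -0.19. Wnt7b, which acts on brain blood vessels, was -0.26 ± 0.09 from young in aged impaired samples (adjusted p = 0.149) and -0.17 ± 0.09 in aged unimpaired samples. Neither Wnt7 gene was called, although Wnt7b passed it in aged impaired against young samples with the meninges mean as a covariate.

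Wnt6, a ligand of epithelial development, was -0.51 ± 0.17 from young in aged impaired samples (adjusted p = 0.144) and -0.46 ± 0.17 in aged unimpaired samples (adjusted p = 0.456). Wnt10a, its next neighbour on the chromosome in the RefSeq annotation of GRCm38.p6, was -0.01 ± 0.18 and -0.25 ± 0.18 from young in the same comparisons. Wnt4, known from kidney and gonad development, was -0.26 ± 0.15 and -0.37 ± 0.15 from young, and its other tested probe set -0.12 and -0.15. Wnt5a, the main ligand of the branch without beta-catenin, was within 0.15 of young in both aged groups on all 3 of its tested probe sets. Wnt11 was -0.11 ± 0.26 and -0.48 ± 0.26 from young. Its aged unimpaired replicate 4 was at 4.68, while the rest of that group ran from 5.87 to 6.71. Wnt3a, which lies next to Wnt9a, was too dim to test, as were Wnt1, Wnt2b, Wnt3, Wnt5b, Wnt8a, Wnt8b, Wnt9b, Wnt10b and Wnt16.

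**Figure D2:**
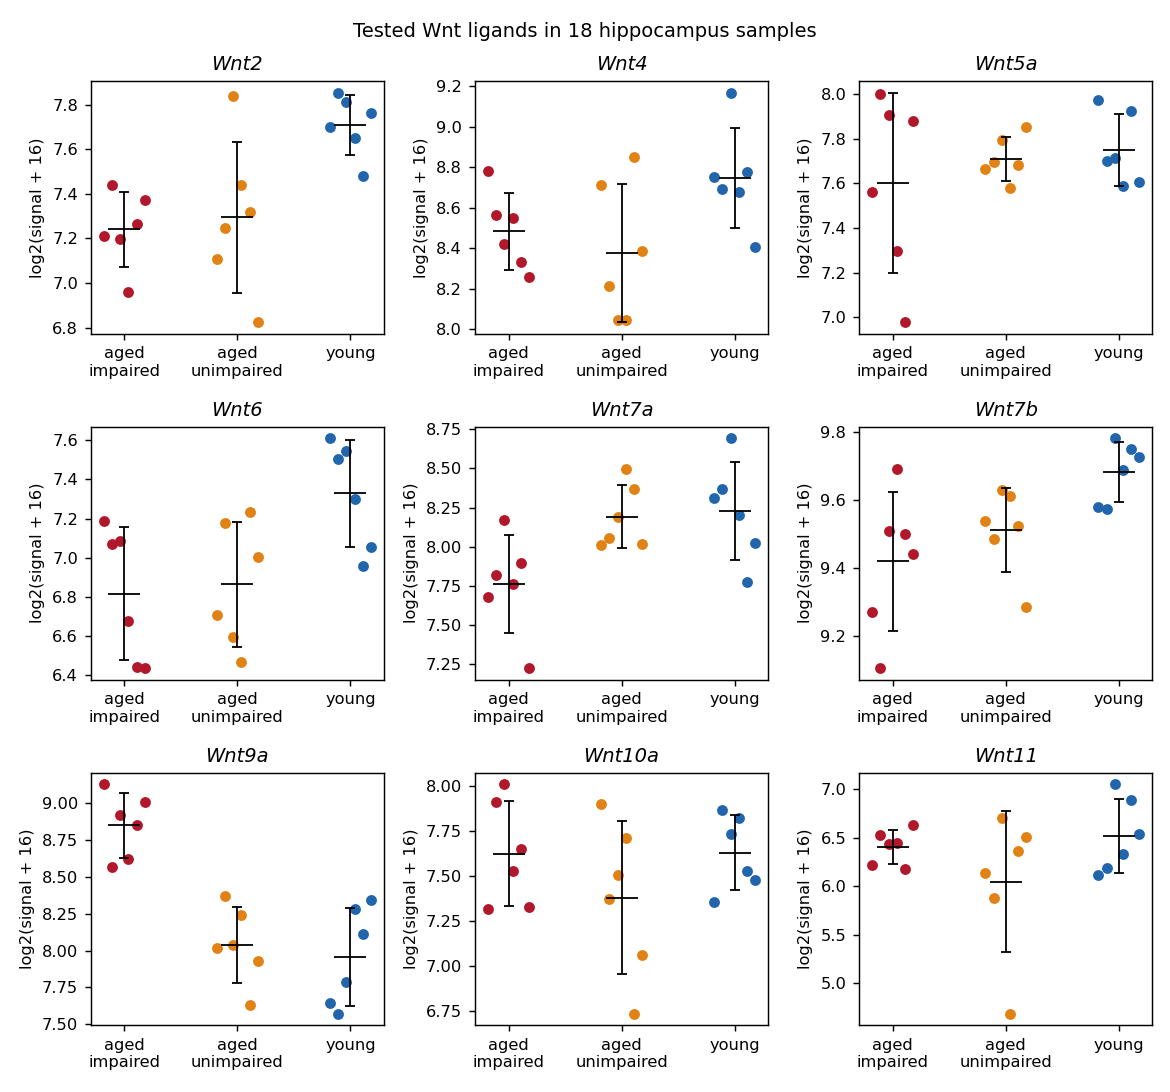
Levels of the 9 tested ligands in log2(signal + 16) (y axis, a separate range in each panel) in the 18 samples by group, 1 point a sample, with the mean and SD in black. The 6 aged impaired samples of Wnt9a lie above all 12 others, and those of Wnt2 lie below the 6 young samples.

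Of the receptors, none was called in any comparison. In aged unimpaired against young samples 10 of 11 had the lower mean, with a median difference of -0.22, and in aged impaired against aged unimpaired samples 9 of 11 had the higher mean, with a median of 0.16. The choroid plexus mean was also higher in aged impaired samples, by 0.83, and 9 of 11 receptors had a positive slope on it, 0.27 for Fzd10, 0.24 for Fzd4, 0.16 for Fzd7 and 0.16 for Fzd5. Its part in the receptor counts was not tested. Fzd6, a receptor known for the patterning of hair follicles, ran from 7.98 through 8.32 to 9.14 in aged impaired, from 7.35 through 7.81 to 8.63 in aged unimpaired and from 7.59 through 8.06 to 8.22 in young samples. The aged impaired samples sat high but overlapped both other groups, with a difference from aged unimpaired of 0.58 ± 0.20 (adjusted p = 0.469) and from young of 0.42 ± 0.20 (adjusted p = 0.307).

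Fzd4, the receptor of Norrin in retinal and brain vessels, ran from 7.33 through 8.53 to 8.70 in aged impaired, from 7.24 through 7.64 to 8.35 in aged unimpaired and from 7.27 through 7.97 to 8.33 in young samples. Of the aged impaired samples, 5 were above the aged unimpaired mean and replicate 5 was far below the rest. The difference from aged unimpaired was 0.62 ± 0.25 (adjusted p = 0.538), and 0.42 ± 0.20 with the choroid plexus mean as a covariate. The other Fzd4 probe set gave 0.33 ± 0.17.

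Fzd10 and Fzd8 had the lower means in aged samples. Fzd10 ran from 4.56 through 5.60 to 6.35 in aged impaired, from 5.01 through 5.86 to 6.53 in aged unimpaired and from 5.57 through 6.55 to 7.22 in young samples, close to the floor of what was tested. Its difference from young was -1.03 ± 0.33 in aged impaired samples (adjusted p = 0.125), with all 6 below the young mean, and -0.71 ± 0.33 in aged unimpaired samples (adjusted p = 0.588). Fzd8 ran from 6.48 through 6.77 to 7.04 in aged impaired, from 5.82 through 6.55 to 6.78 in aged unimpaired and from 6.59 through 6.77 to 7.51 in young samples, a difference of -0.55 ± 0.19 between aged unimpaired and young (adjusted p = 0.413). The meninges mean was 8.28 in aged impaired and 8.13 in aged unimpaired against 8.74 in young samples. With it as a covariate, the Fzd10 difference between aged impaired and young was -0.64 ± 0.34. The Fzd8 difference between aged unimpaired and young was then -0.21 ± 0.20. As the meninges mean was itself lower in both aged groups, the fit tells it from group only in part. Its part in these differences was not tested.

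Fzd2 was -0.25 ± 0.10 from young in aged impaired samples (adjusted p = 0.233) and -0.27 ± 0.10 in aged unimpaired samples (adjusted p = 0.467). All 3 of its probe sets had lower means in both aged groups, from -0.25 to -0.43 and from -0.27 to -0.32. Fzd3, a receptor that guides growing axons, was 0.17 ± 0.09 from young in aged impaired samples, and the co-receptor Lrp6 was 0.14 ± 0.08. Fzd9, a receptor expressed in the developing hippocampus, was -0.24 ± 0.18 and -0.04 ± 0.18 from young in aged impaired and aged unimpaired samples. Its aged impaired replicate 2 was at 6.71, while the rest of that group ran from 7.39 to 7.87. Fzd1, Fzd5 and Fzd7 differed from young by -0.13 to 0.11 in aged impaired and by -0.22 to -0.11 in aged unimpaired samples.

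No secreted antagonist was called between groups, and the medians of their 6 differences were 0.03 for aged impaired against aged unimpaired, 0.06 for aged impaired against young and -0.02 for aged unimpaired against young. Frzb, a secreted frizzled-related antagonist, ran from 8.85 through 9.64 to 9.93 in aged impaired, from 9.61 through 9.72 to 9.96 in aged unimpaired and from 9.64 through 9.84 to 10.12 in young samples, and differed from young by -0.28 ± 0.14 in aged impaired samples (adjusted p = 0.338). Its aged impaired replicate 2 was at 8.85, while the rest of that group ran from 9.62 to 9.93. Dkk3, a Dickkopf relative whose part in Wnt signalling is unsettled, differed by at most 0.08 in size in the 3 comparisons of 2 groups on both of its probe sets. Sfrp4 was -0.35 ± 0.15 from young in aged unimpaired samples (adjusted p = 0.554), and Sfrp2 was 0.15 ± 0.20. Dkk1, Dkk2, Dkk4 and Wif1 were too dim to test.

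Sfrp1, a secreted decoy of Wnts, moved with the choroid plexus signal of each array. It ran from 6.35 through 7.77 to 8.51 in aged impaired, from 6.93 through 7.52 to 8.43 in aged unimpaired and from 7.10 through 7.66 to 7.80 in young samples, and differed by 0.10 ± 0.31 between aged impaired and aged unimpaired. In a fit with the groups as terms it rose by 0.37 ± 0.07 for each log2 unit of the choroid plexus mean (limma, adjusted p = 0.00596). It was the only one of 36 members called, or 2.78%, where 1.87% of all genes were. Within the 13 arrays of high choroid plexus signal the slope was 0.60 ± 0.10 (adjusted p = 0.0248). The other Sfrp1 probe sets had slopes of 0.55 ± 0.08 (adjusted p = 4.16e-04) and 0.23 ± 0.06 (adjusted p = 0.118). Sfrp5 had a slope of 0.35 ± 0.12 (adjusted p = 0.228). Fzd4 had 0.24 ± 0.07 (adjusted p = 0.107), and its other probe set 0.20 ± 0.04 (adjusted p = 0.00651). Fzd4 passed on its brighter probe set when aged unimpaired replicate 2 was left out, Fzd7 when aged unimpaired replicate 5 was, and Sfrp5 when young replicate 5 was, so that the count was then 2. Wnt9a had a slope of -0.01 ± 0.05, and Dact1 one of 0.10 ± 0.04 (adjusted p = 0.375). No member had a called slope on the mean of 12 thalamus and habenula genes. Neither did any other gene (0% of all genes), the 12 of the list included, so this fit cannot show whether members follow that signal. Its slopes were 0.85 ± 0.45 for Tcf7l2, 0.80 ± 0.24 for Fzd1 and -0.49 ± 0.38 for Wnt9a (limma, adjusted p = 0.999 for each).

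**Figure D3:**
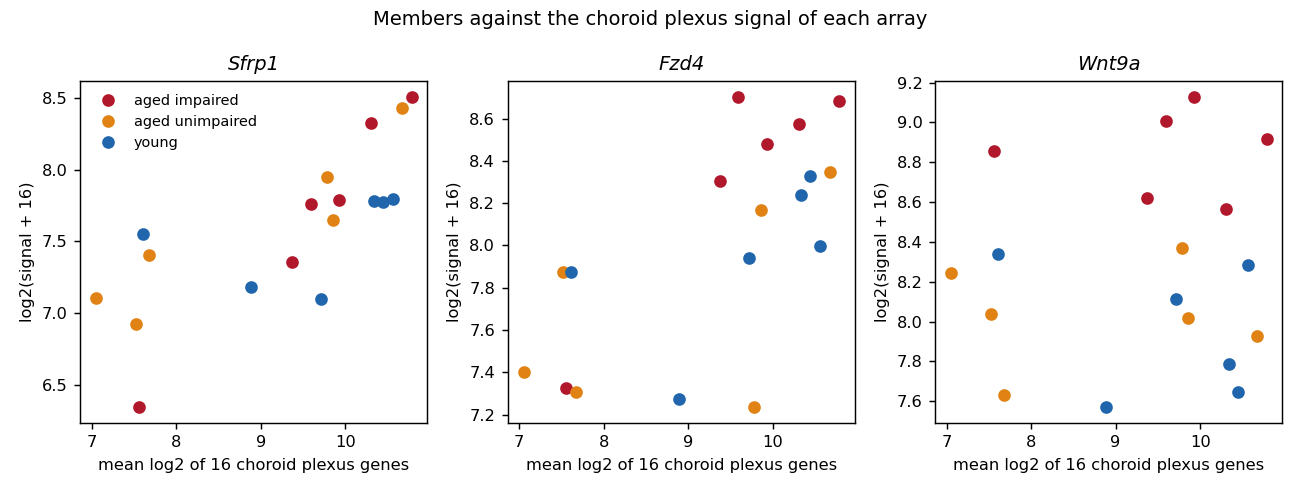
Levels of Sfrp1, Fzd4 and Wnt9a in log2(signal + 16) (y axes) against the mean log2 of the 16 choroid plexus genes (x axes), 1 point an array, coloured by group. Sfrp1 and Fzd4 have positive slopes on the choroid plexus mean, of which only that of Sfrp1 was called. Wnt9a, with a slope of -0.01, shows the 6 aged impaired arrays above the others.

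Inside the cell, Dact1, a Dishevelled-binding protein that dampens Wnt signalling, had its lower means in both aged groups. It ran from 7.53 through 7.82 to 8.25 in aged impaired, from 7.33 through 7.68 to 7.92 in aged unimpaired and from 7.97 through 8.36 to 8.46 in young samples. All 6 aged unimpaired samples lay below all 6 young samples, as was the case for 0.358% of all genes, and the aged impaired samples overlapped the young ones. With both aged groups averaged, Dact1 was lower than in young samples, with a difference of -0.54 ± 0.12 (limma, adjusted p = 0.0349). Taken singly, the difference was -0.44 ± 0.14 in aged impaired samples (adjusted p = 0.109) and -0.64 ± 0.14 in aged unimpaired samples (adjusted p = 0.0787), and the aged groups differed from each other by 0.20 ± 0.14 (adjusted p = 0.741), or by 0.12 without aged impaired replicate 3. Dact1 has 1 probe set on the array.

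The Dact1 call rests close to the threshold. It was lost in 11 of 18 fits that left out a sample, at adjusted p-values from 0.0506 to 0.0888: aged impaired replicates 4 and 6, aged unimpaired replicates 1, 3, 4 and 5, and young replicates 1, 3, 4, 5 and 6. It was also lost with no filter on dim probe sets (0.0771) and on the 13 arrays of high choroid plexus signal (0.297), and was made under 14 of 29 alternatives in all. The newborn neuron mean was also lower in both aged groups, as given above. With the meninges mean as a covariate the difference was -0.38 ± 0.14 (adjusted p = 0.165). With the newborn neuron mean as a covariate the difference between aged unimpaired and young samples was -0.35 ± 0.20, against -0.64 without it. That mean reached at most 10.17 in aged unimpaired and at least 10.25 in young samples, so the fit cannot tell it from group. The part of the meninges and newborn neuron means in the Dact1 difference was not tested.

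Axin2, a scaffold that beta-catenin itself induces as negative feedback, ran from 8.73 through 8.86 to 8.91 in aged impaired, from 8.56 through 8.68 to 8.82 in aged unimpaired and from 8.74 through 9.08 to 9.24 in young samples. All 6 samples of each aged group were below the young mean, but the lowest young sample lay within the range of both aged groups. Its difference from young was -0.33 ± 0.08 in aged unimpaired samples (adjusted p = 0.168, unadjusted 0.000826) and -0.17 ± 0.08 in aged impaired samples (adjusted p = 0.307), and the dimmer probe set gave -0.29 ± 0.23 and -0.32 ± 0.23. With the newborn neuron mean as a covariate the difference between aged unimpaired and young was -0.38 ± 0.13, a fit with the limit given for Dact1.

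Axin1, the scaffold of the complex that degrades beta-catenin, ran from 8.74 through 8.79 to 8.93 in aged impaired, from 8.41 through 8.56 to 8.69 in aged unimpaired and from 8.31 through 8.52 to 9.07 in young samples. The aged impaired samples lay above all aged unimpaired ones, while the young samples spanned both. The difference between the aged groups was 0.26 ± 0.11 (adjusted p = 0.589), and the other Axin1 probe set gave 0.05 ± 0.12. Dvl1, Dvl2 and Dact3 differed by at most 0.10 in size in the 3 comparisons of 2 groups on their brightest probe sets. Dact2 was 0.26 ± 0.22 from aged unimpaired in aged impaired samples.

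Beta-catenin itself, coded by Ctnnb1, differed little between groups on its brightest probe set. It averaged 13.72 ± 0.09 in aged impaired, 13.76 ± 0.12 in aged unimpaired and 13.77 ± 0.05 in young samples, with a difference of -0.04 ± 0.06 between the aged groups (adjusted p = 0.901). Against young it was -0.05 ± 0.06 in aged impaired and -0.01 ± 0.06 in aged unimpaired samples, and signs this near 0 turned under some alternatives. Its other tested probe sets were -0.18 ± 0.08 and -0.19 ± 0.09 in aged impaired against young samples.

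Tcf7l2, a DNA-binding partner of beta-catenin, ran from 7.39 through 7.53 to 7.96 in aged impaired, from 6.36 through 7.41 to 7.73 in aged unimpaired and from 7.52 through 7.77 to 7.98 in young samples. Low aged unimpaired samples drew that group's mean down, with a difference from young of -0.57 ± 0.19 (adjusted p = 0.375) and of 0.41 ± 0.19 for aged impaired against aged unimpaired (adjusted p = 0.603), which was 0.24 without aged unimpaired replicate 6. The dimmer Tcf7l2 probe set went the other way in both comparisons, at 0.12 ± 0.14 and -0.14 ± 0.14. Tcf7l1, a partner that mostly represses, was within 0.05 in each comparison of 2 groups on its brightest probe set, and its dimmer one was -1.02 ± 0.41 in aged unimpaired against young samples (adjusted p = 0.505).

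**Figure D4:**
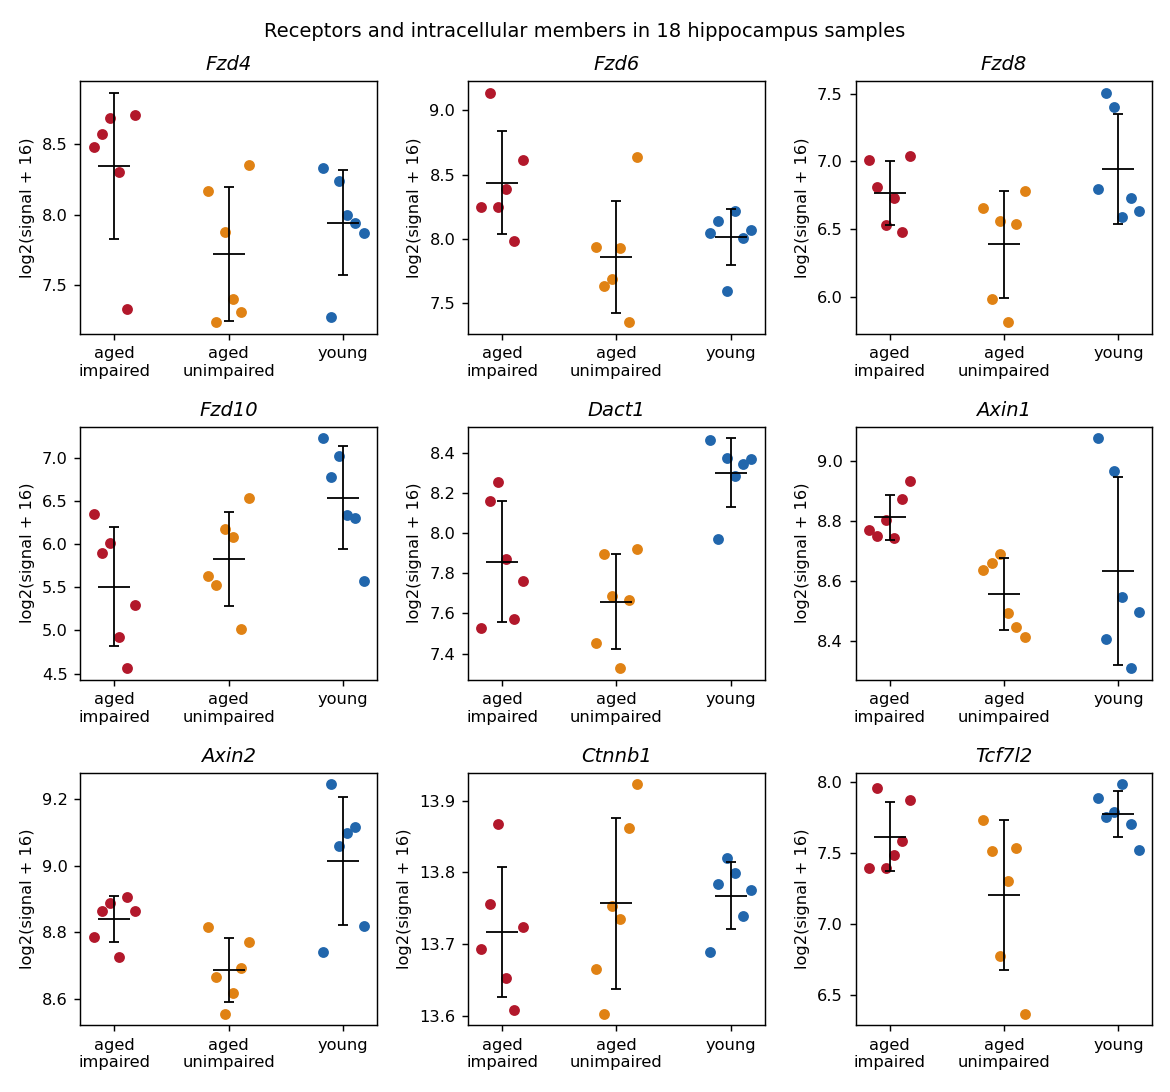
Levels of 4 receptors and 5 intracellular members in log2(signal + 16) (y axis, a separate range in each panel) in the 18 samples by group, 1 point a sample, with the mean and SD in black. The 6 aged unimpaired samples of Dact1 lie below the 6 young samples, and the Ctnnb1 means run from 13.72 to 13.77.

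Of 66 other genes of the pathway written in a list, 57 were tested and none was called in any of the 4 comparisons. On the choroid plexus mean 1 of 57 had a called slope, Sostdc1, at 1.07 ± 0.05, but this gene is itself in the choroid plexus list. In aged impaired against aged unimpaired samples 2 had an unadjusted p under 0.05, both lower, or 3.51%, where 3.64% of all genes were lower. They were Csnk1a1, a kinase of the complex that degrades beta-catenin, at -0.15 ± 0.06 (adjusted p = 0.559) and Pygo2, a nuclear cofactor of beta-catenin, at -0.15 ± 0.07 (adjusted p = 0.570). The target gene Myc followed at -0.39 ± 0.19. The other tested Csnk1a1 probe sets were not lower, at 0.01 ± 0.06, 0.06 ± 0.12 and 0.27 ± 0.25. In aged impaired against young samples 5 did, all lower, or 8.77%, where 7.75% of all genes were lower. Notum, an enzyme that strips Wnts of their lipid, was -0.57 ± 0.19 (adjusted p = 0.134), the corepressor Tle2 was -0.28 ± 0.12 and the Dishevelled-binding Cxxc4 was -0.19 ± 0.08. In aged unimpaired against young samples 2 did, both higher, or 3.51%, where 3.99% of all genes were higher. These were Igfbp4, a secreted binding protein, at 0.26 ± 0.10 (adjusted p = 0.467) and the target gene Tnfrsf19 at 0.21 ± 0.09. Other probe sets of Igfbp4 gave 0.03 to 0.27, and those of Tnfrsf19 gave 0.03 and -0.06. Nkd1, another Dishevelled-binding inhibitor, was -0.32 ± 0.16 there and -0.32 ± 0.16 in aged impaired samples.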

How the data were processed

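The authors deposited probe set intensities on a linear scale. Per the submitters' processing notes MAS5 made them, and no version is named. Biotin-labelled total RNA was hybridised after the standard Affymetrix procedure, per the labels' protocols. Signals reached 27601 over 45101 probe sets, and the 2%-trimmed mean of every array was 150. Arrays have no depth; their number sets the precision (median SE of 0.12 between the aged groups).

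Signals were rescaled to a trimmed mean of 500 and 16 was added before log2. Leaving out 64 control probe sets and the dimmest 40% (mean under 5.92) kept 27022. Of the probe sets, 34945 have 1 symbol in the platform annotation (932 several, 9160 none), and 34741 of them were matched to RefSeq. A fit of 3 group means to 18 samples used limma 3.58.1 in R 4.3.3 with empirical Bayes, 2-sided. Slopes on marker means were fitted with group terms. Marker means were compared by exact 2-sided permutation, adjusted over 39 tests.

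Named members were Wnt9a, Dact1, Axin2, Ctnnb1 and Tcf7l2 and, in each comparison of 2 groups, the 5 of lowest p. Other members are given by role, and of the other pathway genes the 3 of lowest p. Members and lists were chosen with earlier results of these data known. The alternatives changed the scaling (quantile), the offset (1 or 64), the filter (none or 60%), the samples (only the groups compared, or each left out), array weights, a block for the sample number, and covariates for RNA quality and choroid plexus. Added after seeing the data were covariates for meninges and newborn neurons and, for group differences, a fit of the 13 arrays above the choroid plexus gap.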

Additional observations from a re-analysis of the deposited data

Results flagged for a closer look

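In 3 cases a value stood far from the rest of their group of 6 by Dixon's criterion, among 36 groups of named members, where chance flags about 1 in 20. Dact1 in young replicate 2 was low at 7.97, with the nearest young sample at 8.28. Fzd4 in aged impaired replicate 5 was low at 7.33, with the nearest at 8.31. Fzd6 in young replicate 3 was low at 7.59, with the nearest at 8.01.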

How the results depend on the processing

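The Wnt9a difference between aged impaired and young samples was called under all 30 alternatives, and 0 members were called between the aged groups under any of 30. Members called in aged impaired against young samples were 2 with the choroid plexus covariate and with only the groups compared (Wnt2 and Wnt9a), and 2 with the meninges covariate (Wnt7b and Wnt9a), and 1 to 2 when a sample was left out. In aged unimpaired against young samples the count was 1, Dact1, with the 60% filter and with array weights. With both aged groups averaged it was 0 without the filter, 0 with the replicate block (Dact1 adjusted p = 0.083), 0 on the arrays of high choroid plexus signal, 2 with the choroid plexus covariate (Dact1 and Wnt2) and 0 to 1 when a sample was left out. The count of members that follow the choroid plexus mean was 0 with the 60% filter, which leaves out Sfrp1, 0 with the replicate block (Sfrp1 slope 0.33, adjusted p = 0.0634) and 1 to 2 when a sample was left out. In the group comparisons the count of other pathway genes called was 0 under every alternative for which it was kept. The fit with the newborn neuron covariate was read for Dact1 and Axin2 only.

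The sign turned for Ctnnb1 at 0.00236 (RNA quality) and 0.00829 (arrays of high choroid plexus signal) between the aged groups, at 0.0171 (meninges) in aged impaired against young samples, and at 0.00264 (choroid plexus), 0.0794 (meninges), 0.00745 and 0.020 (without aged unimpaired replicates 1 and 2, in a range of -0.0441 to 0.020 over the samples left out) in aged unimpaired against young samples. Wnt9a turned to -0.0874 (meninges) in aged unimpaired against young samples. The causes were not tested. Of the single members' values, 769 kept side and direction, 16 fell below the threshold and 6 passed it.

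Samples with the same number in different groups did not deviate together over all tested probe sets (18 pairs, correlation -0.25 to 0.10, against -0.29 to 0.21 in 90 other pairs). The labels do not say what the numbers stand for. A link that is weak or limited to few genes would not show in these correlations. With the number as a replicate block, probe sets called were 0 against 3 without it for aged impaired against aged unimpaired, 240 against 440 for aged impaired against young, 17 against 37 for aged unimpaired against young, and 141 against 256 for both aged groups against young.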
